A study of Mus musculus with 6 samples.

Results

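The nuclear genes of the mitochondrial respiratory chain were followed in FLK1+ mesodermal cells with and without the transcription factor SCL. Genes were chosen by their symbols alone, as those that begin with Ndufa, Ndufb, Ndufc, Ndufs or Ndufv and a number, Sdha to Sdhd, those that begin with Uqcr or Atp5, Cyc1, and the Cox genes of subunits 4 to 8 with a letter. This named 76 of the 14005 genes in the table: 35 of complex I, 4 of complex II, 9 of complex III, 11 of complex IV (Ndufa4, named after complex I, was counted here) and 15 of complex V, plus Atp5s and Atp5sl, which carry the name but are not subunits of the enzyme. Symbols of another form, such as Cox4i1 and Ndufab1, were left out by the naming rule and were looked at among the other genes of the pathway, and the subunits encoded by mitochondrial DNA were not analysed here.

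FLK1+ cells were isolated for RNA-seq at day 3.5 of embryoid body (EB) differentiation of mouse embryonic stem (ES) cells. The wild-type (WT) group was J1 ES cells and the Scl-/- group an ES line in which Scl (Tal1) is disrupted on both alleles, and no other allele or agent is named for either group. The strain is labelled C57Bl/6 X Sv129 for replicate 1 of both groups and WT replicate 2, and C57Bl/6 X Sv130, C57Bl/6 X Sv131 and C57Bl/6 X Sv132 for Scl-/- replicate 2, WT replicate 3 and Scl-/- replicate 3. Each group had 3 libraries, numbered 1 to 3, and the study describes 3 independent differentiations, so that libraries with the same number were taken as a pair. Each genotype was 1 ES line, so the replicates measure the spread between differentiations and not between lines, and genotype and line cannot be told apart.

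The respiratory chain passes electrons from NADH (through complex I) or succinate (through complex II) to ubiquinone, then through complex III and cytochrome c to complex IV, where oxygen is reduced. Complexes I, III and IV pump protons across the inner mitochondrial membrane, and complex V, the ATP synthase, uses the gradient to make ATP. Pluripotent cells and early embryonic cells lean on glycolysis, and reliance on the chain generally grows as cells differentiate.

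The genes of the chain are on many chromosomes, and the promoters of some hold short motifs of factors that are known to drive nuclear genes of the chain. A few such windows are shown as examples. RefSeq promoters (250 bases before to 50 after the start, build GRCm38.p6) were matched by symbol for 62 of the 76 genes. In each window below, the 40 bases lie before the start of transcription, read 5′ to 3′ on the gene's strand, and the capitals mark the motif: the NRF1 core GCATGCGC in Cox6a1 (chr5:115349095-115349134, minus strand), Atp5g2 (chr15:102671064-102671103, minus strand) and Sdhb (chr4:140961201-140961240, plus strand), the ETS or GABP motif CCGGAAG in Uqcr11 (chr10:80406864-80406903, minus strand) and, as its reverse complement, in Atp5h (chr11:115419934-115419973, minus strand), and the YY1 motif AAGATGGCG in Atp5j (chr16:84835040-84835079, minus strand).
Cox6a1: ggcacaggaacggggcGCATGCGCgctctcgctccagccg
Atp5g2: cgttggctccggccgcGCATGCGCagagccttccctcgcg
Sdhb: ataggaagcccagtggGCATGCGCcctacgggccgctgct
Uqcr11: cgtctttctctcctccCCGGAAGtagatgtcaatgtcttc
Atp5h: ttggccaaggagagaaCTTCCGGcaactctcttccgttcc
Atp5j: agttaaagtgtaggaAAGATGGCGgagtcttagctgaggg

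Searched on both strands, CCGGAAG stood in 23.9% of the 67 promoters of these genes and in 8.86% of all 32851 promoters of that length. GCATGCGC was in 14.9% against 2.71%, and AAGATGGCG in 10.4% against 1.40%. TATAAA, the letters of the TATA box, was in 8.96% against 13.6%. At least 1 of the NRF1, ETS and YY1 motifs was found for 27 of the 62 genes, so that most matched genes held none of them in this window. Matches of different motifs were counted separately even where they overlapped, and a match of letters is a description of the sequence only.

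The values are CPM (a gene's reads scaled to the size of the library) that the authors normalized with edgeR's TMM method, and the reads behind the listed genes were estimated at 38623641 to 47621120 per library, where 3 reads on a gene are worth 0.0615 to 0.0784 CPM. Tal1 had 182 to 306 CPM in WT and 5.68 to 9.35 CPM in Scl-/- libraries. All 5 markers of FLK1+ mesoderm were present, with summed levels of 1260 to 1410 CPM in WT and 1380 to 1800 CPM in Scl-/- libraries. Among them Kdr, which encodes FLK1, was lower in every Scl-/- library (724 to 810 CPM) than in WT (832 to 868 CPM), Etv2 and T were higher in every Scl-/- library, and Mesp1 and Pdgfra were higher in each Scl-/- library than in its WT pair. Markers of undifferentiated ES cells (4 of 4 in the table) summed to 83.9 to 148 CPM in WT and 86.3 to 223 CPM in Scl-/- libraries. Endothelial markers (4 of 4) summed to 106 to 274 CPM in WT and 10.9 to 47.6 CPM in Scl-/- libraries, and blood markers (3 of 4) to 16.2 to 43.1 CPM and 2.44 to 3.06 CPM, with Hbb-bh1 at 0 in every Scl-/- library. Sox17, listed here as an endoderm marker (1 of 3 in the table), had 6.53 to 22.0 CPM in WT and 0.967 to 5.56 CPM in Scl-/- libraries. The paper places Sox17 among genes of endothelial development that SCL activates, so its level cannot be read as endoderm. Pax6, the neuroectoderm marker in the table (1 of 2 listed), had 12.7 to 15.4 CPM in WT and 13.9 to 15.5 CPM in Scl-/- libraries. Their part in the results below was not tested, and in such bulk RNA fewer cells of a type and less RNA per cell cannot be told apart.

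The first comparison asked whether the respiratory chain genes differ between WT and Scl-/- FLK1+ cells. Their summed level was 7410, 7713 and 9172 CPM in WT replicates 1, 2 and 3 and 7312, 8136 and 8784 CPM in Scl-/- replicates 1, 2 and 3. The ranges overlapped, and in both genotypes replicate 3 was the highest and replicate 1 the lowest. The log2 fold changes (Scl-/- against WT, on log2(CPM + 0.5)) ran from -0.37 to 0.38 with a median of 0.01, and the median over all tested genes was also 0.01. 39 genes had a higher and 37 a lower mean in Scl-/- cells, and 67 lay within 0.2 of no change.

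limma on log2(CPM + 0.5) over 13991 genes called 0 of the 76 genes when both a Benjamini-Hochberg adjusted p under 0.05 and a log2 fold change beyond 0.48 in either direction were required, where it called 330 genes in all, or 2.36%. With the adjusted p alone it called 0 of 76 against 2.38% of all genes. At an unadjusted p under 0.05 stood 3 of the 76, Ndufs1, Sdhc and Atp5h, or 3.95%, against 17.7% of all tested genes. When the fit included a block for the replicate number, which removes what the libraries of a pair share, 0 of 76 passed both thresholds against 12.6% of all genes, and 7 of 76 (9.21%) passed the adjusted p alone against 24.2% of all genes. In that fit the 95% interval of the log2 fold change lay wholly within 0.48 of no change for 72 of the 76 genes. The same held for 8735 of the 13991 tested genes. Without the block it held for 57 of the 76 and for 5374 of all tested genes. Only Ndufs1, Ndufa10 and Sdhc had WT and Scl-/- values that did not overlap, all lower in Scl-/- cells, which was 3.95% of the 76 against 21.6% of all tested genes.

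**Figure D1:**
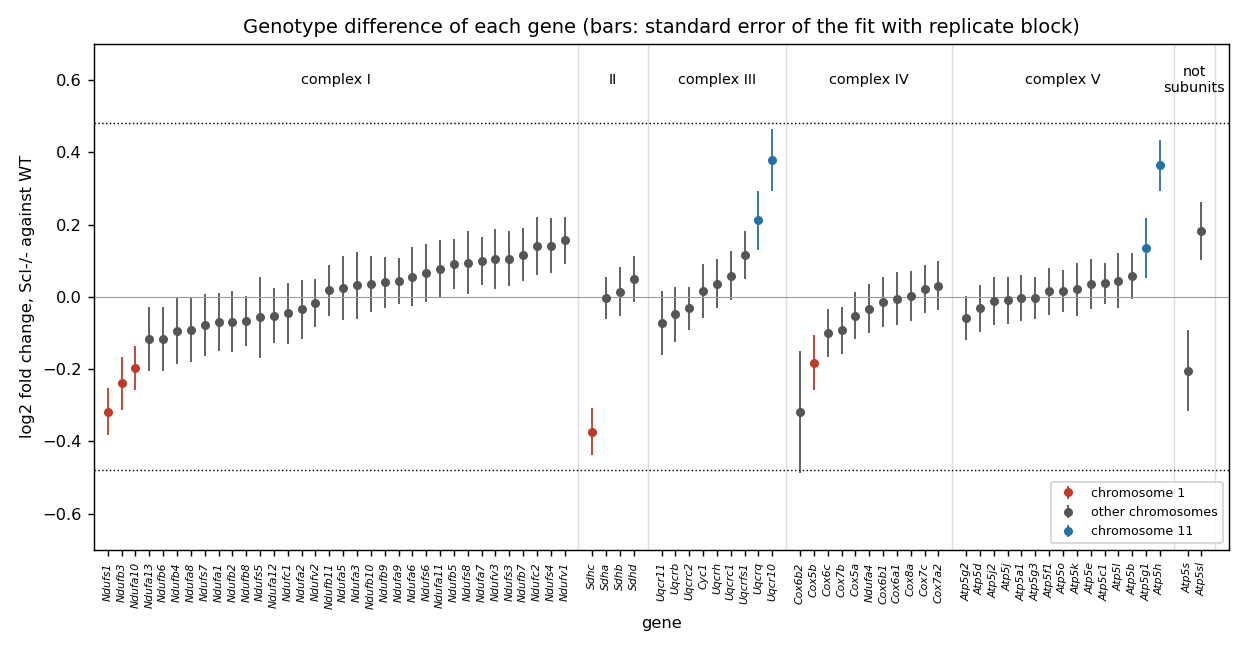
The log2 fold change of the genes (y axis, Scl-/- against WT) is plotted by complex, with bars for the standard error of the fit with the replicate block, dotted lines at the fold threshold of 0.48, and chromosome 1 and chromosome 11 genes in colour. The genes of chromosome 1 lie from -0.37 (Sdhc) to -0.18 (Cox5b), and the 2 highest genes, Uqcr10 (0.38) and Atp5h (0.36), are on chromosome 11.

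The 7 genes that passed the adjusted p with the replicate block were on 2 chromosomes. The 5 on chromosome 1, among them Ndufs1, Ndufb3, Ndufa10 and Sdhc, were lower in Scl-/- cells, and Uqcr10 and Atp5h, both on chromosome 11, were higher. Over all tested genes, the median log2 fold change was -0.29 on chromosome 1 and 0.31 on chromosome 11, against 0.00 on the other chromosomes. Of the tested chromosome 1 genes, 49.0% passed the adjusted p with the block and were lower, as did 5 of the 6 respiratory chain genes there. Of the chromosome 11 genes, 51.4% passed and were higher, as did 2 of 4. On the other chromosomes 0 of 66 passed against 19.1% of tested genes. When the median of each chromosome was subtracted in each library, 0 of the 76 genes passed with the block, against 18.9% of all genes. The median of the 6 chromosome 1 genes then moved from -0.24 to 0.04 and that of the 4 chromosome 11 genes from 0.29 to -0.02. Without the intensity trend in limma, 2 genes passed in place of 7, and the count over all tested genes fell from 3385 to 2466. Without pairs 1, 2 and 3 the counts were 6, 0 and 4, against 3654, 1259 and 1641 of all tested genes.

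In complex I, NADH is oxidized in the N module of the peripheral arm, ubiquinone is reduced in the Q module, and the membrane arm pumps protons. The median log2 fold change was 0.06 over the 10 N module genes, 0.03 over the 6 Q module genes and -0.06 over the 19 membrane arm genes, and 18 of the 35 genes had the higher mean in Scl-/- cells. With chromosome medians removed, the module medians were 0.065, 0.038 and 0.009 in the same order. Ndufs1 (ENSMUSG00000025968), the iron-sulfur subunit of the N module that carries several clusters, lies on chromosome 1 from 63190170 to 63223396 of mm9 on the minus strand. It had 191, 178 and 201 CPM in WT libraries 1 to 3 and 140, 149 and 169 CPM in Scl-/- libraries 1 to 3. Every Scl-/- library was below every WT library. The log2 fold change was -0.32 with a standard error of 0.10, or 0.065 with the block, and limma's Benjamini-Hochberg adjusted p was 0.175 without and 0.0112 with the block.

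Ndufb3 (ENSMUSG00000026032, chromosome 1, 58643228 to 58652808, plus strand, mm9) is an accessory subunit of the membrane arm. Its level was 45.3, 49.1 and 53.2 CPM in WT and 35.6, 42.7 and 46.9 CPM in Scl-/- replicates 1 to 3, with overlapping groups and the lower value in Scl-/- cells in all 3 pairs. The adjusted p from limma was 0.422 without and 0.0487 with the block, at a log2 fold change of -0.24. Ndufa10 (ENSMUSG00000026260, chromosome 1, 94335587 to 94370437, minus strand, mm9), another accessory subunit of the membrane arm, had 148, 155 and 159 CPM in WT and 125, 131 and 147 CPM in Scl-/- libraries. Its groups were apart by a small margin, the log2 fold change was -0.20, and the adjusted p was 0.352 without and 0.0497 with the block in limma.

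Outside chromosome 1, the complex I log2 fold changes ran from -0.12 (Ndufa13 and Ndufb6) to 0.16 (Ndufv1), and none passed. Ndufv1, the flavoprotein that takes electrons from NADH, had 109, 116 and 145 CPM in WT and 119, 141 and 151 CPM in Scl-/- replicates 1 to 3. Its values overlapped between the genotypes, although each pair had the higher value in Scl-/- cells. With the block, its limma adjusted p was 0.129 and the 95% interval of its log2 fold change ran from 0.003 to 0.309.

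Complex II, succinate dehydrogenase, is also an enzyme of the TCA cycle and has no subunit encoded in mitochondria. Sdhc (ENSMUSG00000058076), 1 of its 2 membrane anchors, lies on chromosome 1 from 173057296 to 173080734 on the minus strand of mm9. Its level was 120, 129 and 141 CPM in WT and 86.3, 99.5 and 117 CPM in Scl-/- replicates 1 to 3. All Scl-/- values were below all WT values, and the log2 fold change of -0.37 was the lowest of the 76 genes. limma gave an adjusted p of 0.201 without and 0.00593 with the block.

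The 3 other subunits of complex II were on other chromosomes and had overlapping groups. Sdha, the flavoprotein, had 255, 257 and 305 CPM in WT and 244, 270 and 300 CPM in Scl-/- replicates 1 to 3, a log2 fold change of 0.00 with a 95% interval from -0.138 to 0.132 with the block. Sdhd, the other anchor, had 110, 125 and 126 CPM and 122, 129 and 122 CPM, with a log2 fold change of 0.05. Sdhc thus had a lower mean where its partner anchor did not, but the difference between the 2 genes' changes was not tested.

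Complex III, the cytochrome bc1 complex, had log2 fold changes from -0.07 to 0.38. Uqcr10 (ENSMUSG00000059534), a small supernumerary subunit, lies on chromosome 11 from 4601976 to 4604345 on the minus strand of mm9. It had 53.3, 53.1 and 79.7 CPM in WT and 64.2, 81.5 and 95.2 CPM in Scl-/- replicates 1 to 3. The groups overlapped through WT replicate 3, and each pair had the higher value in Scl-/- cells. The log2 fold change of 0.38 was the highest of the 76 genes, with an adjusted p in limma of 0.406 without and 0.0164 with the block.

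Uqcrq, another small subunit on chromosome 11, had a log2 fold change of 0.21 and an adjusted p of 0.0958 with the block in limma. At the other end, Uqcr11, a small subunit on chromosome 10, had 45.9, 46.3 and 64.7 CPM in WT and 46.3, 48.9 and 52.3 CPM in Scl-/- replicates 1 to 3, with overlapping groups and a log2 fold change of -0.07. The catalytic subunits Cyc1 (cytochrome c1) and Uqcrfs1 (the Rieske iron-sulfur protein) had log2 fold changes of 0.02 and 0.12, and the core proteins Uqcrc1 and Uqcrc2 of 0.06 and -0.03. None of these passed with or without the block.

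For complex IV, cytochrome c oxidase, the median log2 fold change was -0.03, 8 of the 11 genes had the lower mean in Scl-/- cells and none passed in either fit. Cox5b, a zinc-binding subunit on chromosome 1, had a log2 fold change of -0.18 and an adjusted p of 0.121 with the block in limma. Cox6b2, the testis isoform of subunit 6b, had 7.33, 10.3 and 10.1 CPM in WT and 8.40, 6.96 and 6.44 CPM in Scl-/- replicates 1 to 3. Pairs 2 and 3 were lower and pair 1 higher in Scl-/- cells, and the log2 fold change was -0.32 with an adjusted p of 0.215 with the block. Without pair 1, the blocked fit gave -0.57 and an adjusted p of 0.0105 in limma. The ubiquitous isoform Cox6b1 had 100, 97.4 and 128 CPM in WT and 102, 103 and 115 CPM in Scl-/- libraries, with a log2 fold change of -0.02.

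The other complex IV genes with tissue isoforms differed little between the genotypes. Cox6a1, the isoform outside heart and muscle, had 112, 101 and 153 CPM in WT and 109, 113 and 139 CPM in Scl-/- replicates 1 to 3. Cox7a2, likewise, had 66.2, 70.6 and 79.0 CPM in WT and 67.3, 77.3 and 75.8 CPM in Scl-/- libraries. Cox8a had 96.6, 99.9 and 128 CPM in WT and 96.2, 110 and 117 CPM in Scl-/- libraries. All 3 had groups that overlapped and log2 fold changes between -0.01 and 0.03. Ndufa4, a subunit of complex IV despite its name, had 106, 113 and 119 CPM in WT and 110, 114 and 105 CPM in Scl-/- libraries, which also overlapped.

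In complex V, the genes of the catalytic beta subunit (Atp5b), the alpha subunit beside it (Atp5a1) and a stalk subunit (Atp5o) had log2 fold changes of 0.06, 0.00 and 0.02. Atp5b had 869, 907 and 1100 CPM in WT and 866, 1000 and 1130 CPM in Scl-/- replicates 1 to 3, with values that overlapped throughout. Atp5h (ENSMUSG00000034566), subunit d of the peripheral stalk, lies on chromosome 11 from 115277003 to 115281276 on the minus strand of mm9. Its level was 68.3, 74.0 and 86.4 CPM in WT and 81.6, 104 and 110 CPM in Scl-/- replicates 1 to 3. Only WT replicate 3 reached into the Scl-/- range, and all 3 pairs had the higher value in Scl-/- cells. The log2 fold change was 0.36, with an adjusted p of 0.251 without and 0.00837 with the block in limma.

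The 3 genes Atp5g1, Atp5g2 and Atp5g3 encode one and the same mature protein, subunit c of the membrane ring, from different precursors. Atp5g3 had 214, 239 and 282 CPM in WT and 215, 247 and 270 CPM in Scl-/- replicates 1 to 3. Atp5g2 had 110, 116 and 133 CPM in WT and 104, 117 and 123 CPM in Scl-/- libraries. Atp5g1, on chromosome 11, had 56.6, 50.2 and 69.6 CPM in WT and 55.9, 63.0 and 74.6 CPM in Scl-/- libraries. All 3 overlapped between genotypes, with log2 fold changes of 0.00, -0.06 and 0.14. Atp5s and Atp5sl, which are not subunits, had log2 fold changes of -0.20 and 0.18 and did not pass.

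Levels of different genes were compared per kb of transcript, with the transcript length from the GENCODE annotation of mm9, averaged over the 6 libraries. Atp5b led with 511 CPM per kb, followed by Atp5o (382), Atp5g3 (343) and Atp5a1 (310). The lowest complex V gene on the transcripts used was Atp5l at 83.4 CPM per kb. Complex IV genes other than Cox6b2 lay between 96.4 (Cox7a2) and 226 CPM per kb (Ndufa4), complex III genes between 62.2 (Uqcrfs1) and 164 (Uqcr10), complex II genes between 36.4 (Sdhc) and 95.0 (Sdhd), and complex I genes between 13.0 (Ndufa11) and 156 (Ndufa7). Ndufa7, an accessory subunit of the N module, had 68.6, 74.5 and 87.1 CPM in WT and 75.6, 83.9 and 86.4 CPM in Scl-/- replicates 1 to 3, which overlapped. Of the ring genes Atp5g3 was above Atp5g2 (181 CPM per kb) and Atp5g1 (103 CPM per kb, or 13.1 on its longest annotated transcript of 4715 bases). Cox6b2, at 11.7 to 18.7 CPM per kb in the 6 libraries, was far below Cox6b1 at 213 on average. These ranges depend on the transcript chosen: on the longest annotated transcript, Ndufb2 had 7.96 in place of 76.5 CPM per kb, Uqcrq 41.4 in place of 156 and Cox7c 85.4 in place of 112, which made them lower than the lowest genes given for complexes I and III and than Cox7a2 in complex IV. Many of these genes have processed pseudogenes, and the mapping quality filter of the authors takes out reads that fit several copies alike, which can lower their values. The annotated span of Atp5o on chromosome 16 of mm9, from 91684643 to 91931932, is far longer than its transcript of 838 bases, and its reads may include those of overlapping genes. Removal of duplicate reads can also lower the values of short, abundant transcripts.

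**Figure D2:**
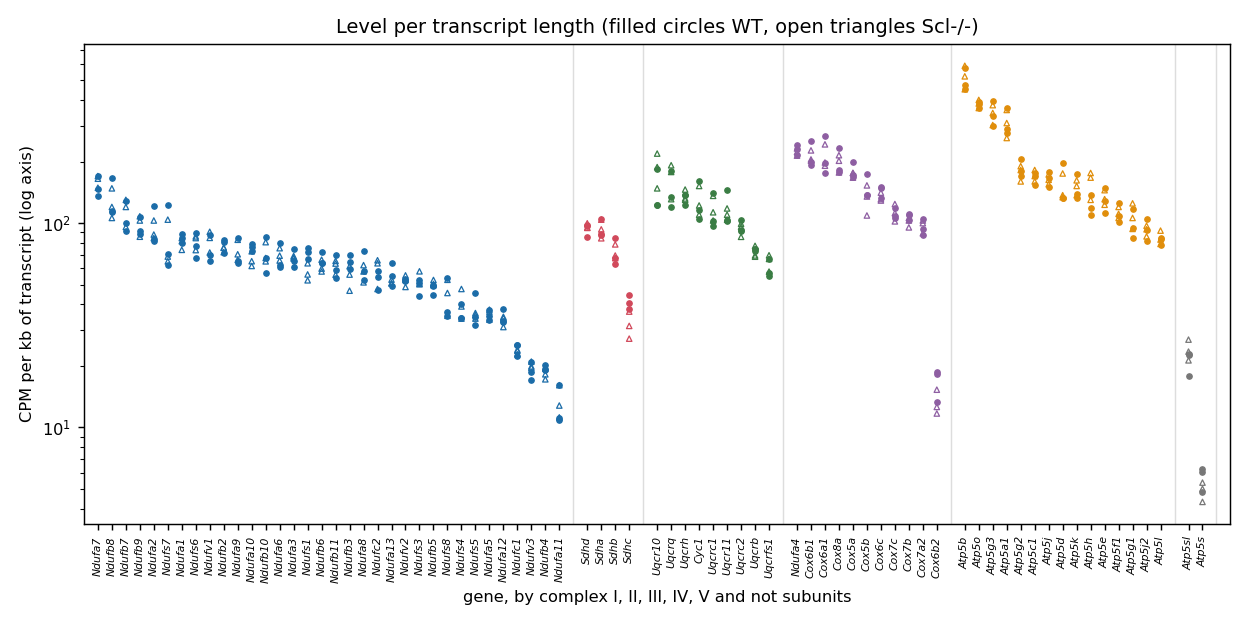
CPM per kb of transcript (log axis) is plotted for the genes in each of the 6 libraries, with filled circles for WT and open triangles for Scl-/-, ordered by level within each complex. Atp5b is the highest at 511 on average and Atp5s the lowest at 5.31, and WT and Scl-/- symbols intermingle for nearly all genes.

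The second comparison was between replicate numbers, each of which was taken to stand for 1 differentiation with 1 library of each genotype. Most genes of the chain were highest in replicate 3, in both genotypes. The median of the 76 genes, as log2(CPM + 0.5) minus the mean of the 6 libraries, was -0.13, -0.04 and 0.18 in WT replicates 1, 2 and 3 and -0.10, 0.02 and 0.08 in Scl-/- replicates 1, 2 and 3. The same median over all tested genes stayed between -0.01 and 0.02 in the 6 libraries. The 76 genes made up 0.744%, 0.764% and 0.927% of all CPM in WT and 0.749%, 0.799% and 0.887% in Scl-/- replicates 1, 2 and 3.

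**Figure D3:**
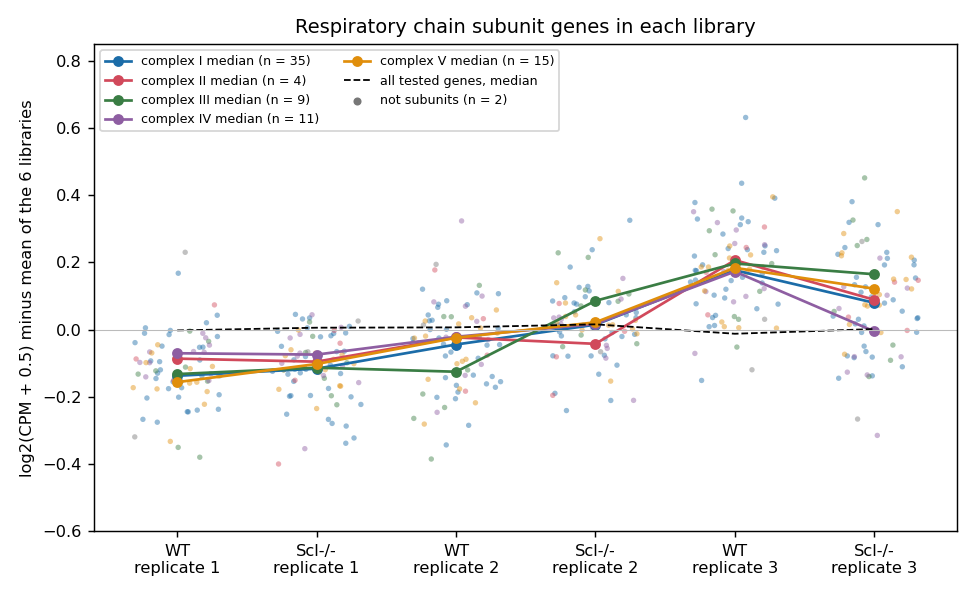
Each small point is 1 of the 76 genes, as log2(CPM + 0.5) minus its mean over the 6 libraries (y axis), in the libraries ordered by replicate (x axis). Lines join the median of each complex and the dashed line is the median of all tested genes. In WT replicate 3 all 5 complexes have their highest median, from 0.17 to 0.21, and in Scl-/- replicate 3 the medians run from -0.01 (complex IV) to 0.17 (complex III).

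A moderated F test in limma over the replicate numbers, with genotype in the model, called 29 of the 76 genes (38.2%) at a Benjamini-Hochberg adjusted p under 0.05, against 32.5% of all tested genes. The share of genes called was thus near that of all genes, and the direction differed. Of the 29, 28 had a higher mean in replicate 3 than in replicates 1 and 2 (36.8% of the 76), while the same held for 15.2% of all tested genes. In 46 of the 76 genes (60.5%) replicate 3 was above replicates 1 and 2 in WT and in Scl-/- cells alike, against 26.0% of all tested genes. The median difference of replicate 3 from the mean of 1 and 2 was 0.21 on the log2 scale, 1.155-fold, and was 0.26 in WT and 0.16 in Scl-/- libraries, against a median of 0.00 over all tested genes. It was above 0 in 64 of 76 genes. Without the intensity trend in limma the count fell from 29 to 5, and the genes called overall from 4554 to 2190.

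The median difference of replicate 3 was 0.20, 0.25, 0.31, 0.13 and 0.25 for complexes I, II, III, IV and V. By genotype these medians were 0.250, 0.215, 0.484, 0.207 and 0.281 in WT and 0.133, 0.213, 0.161, 0.032 and 0.167 in Scl-/- libraries. In the same order 12 (34.3%), 3 (75.0%), 4 (44.4%), 3 (27.3%) and 7 (46.7%) genes were called, against 32.5% of all tested genes. Within complex I the median difference was 0.40 over the Q module, with 4 of 6 genes called (66.7%). It was 0.19 over the N module (3 of 10, 30.0%) and 0.19 over the membrane arm (5 of 19, 26.3%). Ndufs7, a Q module core subunit that carries an iron-sulfur cluster, had 53.4, 47.4 and 93.6 CPM in WT and 49.3, 52.0 and 78.6 CPM in Scl-/- replicates 1 to 3. Replicate 3 stood apart in both genotypes, 1.693-fold over the others on the log2 mean, with an adjusted p of 0.00481 in limma, the lowest of the 76 genes.

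Ndufs8, its neighbour in the Q module with 2 iron-sulfur clusters, had 33.7, 35.5 and 51.6 CPM in WT and 33.9, 43.8 and 50.9 CPM in Scl-/- replicates 1 to 3. Cyc1, which hands electrons to cytochrome c, had 139, 125 and 192 CPM in WT and 131, 145 and 181 CPM in Scl-/- libraries. Atp5d, the delta subunit in the rotating stalk of the ATP synthase, had 123, 123 and 183 CPM in WT and 128, 125 and 163 CPM in Scl-/- libraries. In these 3 genes replicate 3 was the highest in both genotypes, and the limma adjusted p was 0.0146, 0.0132 and 0.00868. Atp5a1 followed the same order, with 681, 714 and 902 CPM in WT and 645, 764 and 884 CPM in Scl-/- libraries.

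The rise in replicate 3 was not shared by every subunit. Uqcrc2, the core protein that pairs with Uqcrc1, had 171, 192 and 169 CPM in WT and 178, 184 and 159 CPM in Scl-/- replicates 1 to 3, lowest in replicate 3 of both genotypes, and was not called (adjusted p = 0.143 in limma). Uqcrc1 had 170, 161 and 232 CPM in WT and 171, 187 and 225 CPM in Scl-/- libraries, highest in replicate 3 of both, and was called (adjusted p = 0.0149 in limma). Cox7c had 58.5, 64.0 and 57.5 CPM in WT and 60.7, 67.2 and 55.3 CPM in Scl-/- libraries and was not called. Ndufs4, an accessory subunit of the N module, was the gene among the 29 whose replicate 3 was not above the mean of the others, with its highest level in replicate 2 (61.4 CPM in WT and 73.1 CPM in Scl-/-).

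The GC content of the transcript varied with this difference. Across the 76 genes, Spearman's rho between GC content and the difference of replicate 3 was 0.71 and Pearson's r 0.72 (rho 0.77 in WT and 0.59 in Scl-/-); these points share 6 libraries and are not independent. Across the 12514 tested genes with a transcript length and GC content, rho was 0.46. In groups of 19 genes from low to high GC, the median difference was 0.01, 0.19, 0.25 and 0.36, and 2, 7, 6 and 14 genes were called. Of all tested genes, whatever their GC content, 32.5% were called. After the median of each of 20 bins of GC content was subtracted in every library, the median over the 76 genes was 0.16, 62 of them were above 0, and 19 (25.0%) were called against 22.5% of all tested genes.

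**Figure D4:**
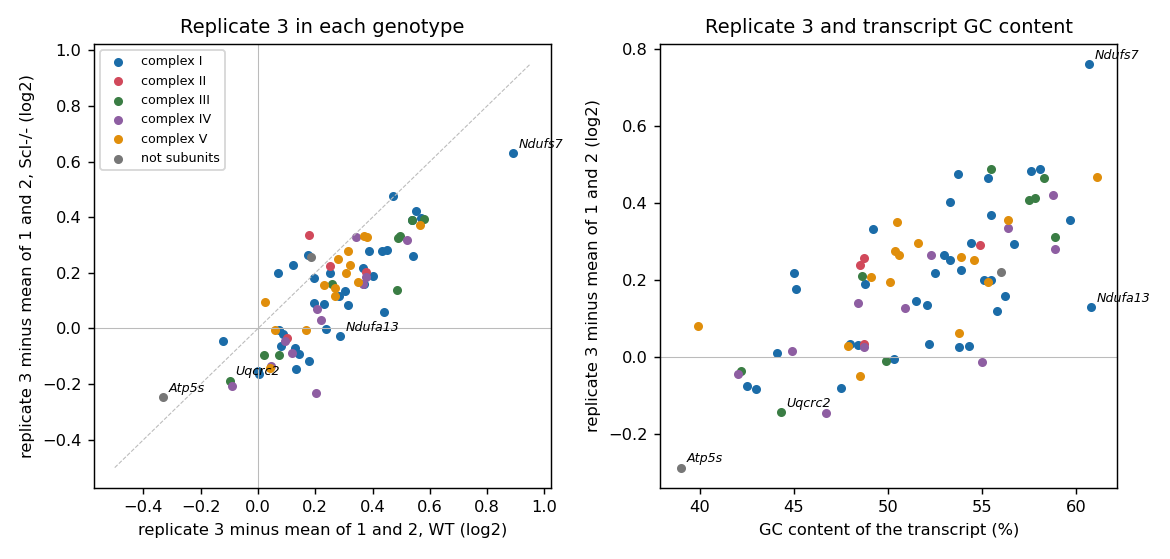
Left, the difference of replicate 3 from the mean of replicates 1 and 2 (log2) in Scl-/- (y axis) against WT (x axis) for the 76 genes, coloured by complex, with a dashed line of equality. Right, the difference averaged over both genotypes against the GC content of the transcript in percent. Most points lie above 0 in both genotypes, Ndufs7 is the highest and Atp5s the lowest at -0.29, and the difference is larger for transcripts of higher GC content (Spearman's rho 0.71).

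Some other measures also moved with the replicate number. Genes of the cytosolic ribosome (Rpl and Rps symbols, 82 tested) had a median difference of replicate 3 of 0.24, with 42 called (51.2%), and those of the mitochondrial ribosome (Mrpl and Mrps, 76 tested) of 0.16, with 16 called (21.1%), against 32.5% of all tested genes. All 2380 tested genes with a transcript under 1500 bases had a median of 0.12. The 86 other tested genes of the pathway, described below, had a median of 0.02, with 20 called (23.3%). Among these the median was 0.02 over 42 assembly factors, -0.06 over 16 regulators and 0.10 over 17 TCA cycle genes. Of the marker lists, the summed endothelial level was highest in replicate 3 of both genotypes, at 274 CPM in WT and 47.6 CPM in Scl-/-, as were the blood markers at 43.1 and 3.06 CPM and Sox17 at 22.0 and 5.56 CPM. In Scl-/- libraries the blood sum was nearly all Itga2b, with Hbb-bh1 at 0 and Gata1 highest in replicate 1 (0.225 CPM, against 0.204 CPM in replicate 3). The summed ES cell and FLK1+ mesoderm markers were highest in replicate 2 of both genotypes, as were Pou5f1, Nanog, Mesp1, Pdgfra and T. Etv2 was highest in replicate 3 of both (138 CPM in WT and 240 CPM in Scl-/-). Kdr was highest in WT replicate 1 (868 CPM) and Scl-/- replicate 3 (810 CPM). Zfp42 and Esrrb were highest in WT replicate 2 (7.16 and 2.98 CPM) and Scl-/- replicate 3 (9.73 and 1.97 CPM). The part of cell makeup, GC content or handling in the difference was not tested. The libraries of 1 number were taken to share a differentiation, which was not tested apart from shared handling. Cell makeup, GC content and handling thus cannot be told apart from the replicate number.

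Of 108 other listed genes of the pathway, 13 were the subunits encoded by mitochondrial DNA, which were not analysed here. The rest were assembly factors, subunits outside the naming rule, cytochrome c and carriers, regulators and the TCA cycle, and 86 were tested. limma called 1 of them (1.16%) between genotypes at both thresholds without the block, against 2.36% of all tested genes, and 3 (3.49%) with it, against 12.6%. With the block 15 (17.4%) passed the adjusted p alone, 9 higher and 6 lower in Scl-/- cells, against 24.2% of all tested genes. The gene called in both fits was Polg2, the accessory subunit of the mitochondrial DNA polymerase, on chromosome 11, with 7.35, 7.19 and 5.90 CPM in WT and 12.3, 14.6 and 15.4 CPM in Scl-/- replicates 1 to 3. Its groups did not overlap, and the log2 fold change was 1.00 with an adjusted p of 0.0244 in limma, a call that was lost without WT replicate 1, WT replicate 3, Scl-/- replicate 2 or Scl-/- replicate 3. The call was also lost in the fit without the block once chromosome medians were removed, where the log2 fold change was 0.69, while with the block its adjusted p was then 0.00813 in limma. Polg, the catalytic subunit, on chromosome 7, went the other way, with 233, 162 and 263 CPM in WT and 173, 133 and 174 CPM in Scl-/- libraries. Its groups overlapped, while each pair was lower in Scl-/- cells, and the log2 fold change of -0.44 had an adjusted p of 0.00472 with the block in limma.

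Among the 18 tested assembly factors of complex IV, 6 (33.3%) passed the adjusted p with the block, 4 higher and 2 lower, against 24.2% of all tested genes. All 6 lie on chromosomes 11 and 1, where 51.4% and 49.0% of the tested genes passed in the same directions. Higher in Scl-/- cells were Cox11 and Sco1, which deliver copper to the enzyme, at log2 fold changes of 0.56 and 0.54, Coa3 at 0.40 and the haem enzyme Cox10 at 0.34, all on chromosome 11. Lower were Cox20 at -0.41 and Coa5 at -0.25, both on chromosome 1. Sco1 had 35.3, 40.1 and 31.5 CPM in WT and 51.0, 59.4 and 45.9 CPM in Scl-/- replicates 1 to 3, with no overlap. Of the other assembly factors, Atpaf2 (complex V, chromosome 11) was higher at 0.35, and Bcs1l (complex III, chromosome 1) and Ndufaf3 (complex I, chromosome 9) were lower at -0.33 and -0.37. After subtraction of the chromosome medians, 0 of the 42 assembly factors passed with the block, against 18.9% of all tested genes.

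All 6 of the other pathway genes on chromosome 1 had the lower mean in Scl-/- cells (median -0.25) and all 10 on chromosome 11 the higher (median 0.34), and of the 70 elsewhere 5 (7.14%) passed with the block, against 19.1% of tested genes there. These were Polg, Ndufaf3, Ppargc1b (-0.36, a coactivator of mitochondrial biogenesis), Esrra (0.30, a nuclear receptor that acts with it) and Suclg1 (0.23, of the TCA cycle). The 15th gene was Ogdh of the TCA cycle (0.32, chromosome 11). Nrf1, Gabpa and Tfam, which drive the nuclear genes of the chain and mitochondrial DNA, had log2 fold changes of 0.04, -0.02 and 0.05 and did not pass between genotypes. Cycs, cytochrome c, had 0.00. Over replicate numbers, Nrf1 was called (adjusted p = 0.0325 in limma), with its lowest level in replicate 3 of WT (89.8 CPM) and Scl-/- (88.5 CPM). Gabpa and Tfam were not called over replicate numbers (adjusted p = 0.102 and 0.189 in limma). Cox4i1, the subunit 4 isoform left out by the naming rule, had 232, 230 and 330 CPM in WT and 217, 236 and 316 CPM in Scl-/- replicates 1 to 3. It had no genotype difference past the test (log2 fold change -0.04, adjusted p = 0.965 in limma) and was high in replicate 3 of both genotypes (adjusted p = 0.00541 over replicate numbers in limma). Of the 7 tested subunits outside the naming rule, Cox4i1 was the only 1 called by replicate number (14.3%, against 32.5% of all tested genes). Their median difference of replicate 3 was -0.02, and it was above 0 in 2 of the 7.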

How the data were processed

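FLK1+ cells of 3 WT and 3 Scl-/- libraries were compared. The authors aligned reads to mm9 with TopHat2 2.0.8b, removed duplicate read pairs, kept reads with a mapping quality above 15 (SAMtools 0.1.19) and deposited CPM values normalized with edgeR's TMM method. The counting tool and annotation are not given in the sources used here. The authors used edgeR for their own test. Here log2(CPM + 0.5) was fitted with limma 3.58.1 (R 4.3.3), using lmFit and then eBayes with its intensity trend, over the 13991 genes that reached 0.5 CPM in 3 or more libraries, with Benjamini-Hochberg adjustment over all of them. The pseudocount understates fold changes of low genes. Genes were called at an adjusted p under 0.05 and, where stated, an absolute log2 fold change above 0.48. Replicate numbers come from the labels. Deviations from the group means correlated at 0.587, 0.756 and 0.748 between same-numbered libraries and at -0.621 to -0.1 between others. Deviations within a group sum to 0, so the negative values follow in part from the positive ones and are not separate evidence. The numbers were treated as pairs, and the model was also fitted with the replicate block. The strain labels, which differ in their last number, were not used as groups.

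Reads per library were estimated from the step between CPM values, and the floor of 3 reads covers counting error only. The script was tested on simulated data. Transcript length and GC content come from the GENCODE annotation of mm9 and motifs from RefSeq promoters. The genes followed and the lists were chosen with earlier results of these data known. Values per library are given for genes called in either fit, for the genes with the highest and lowest fold change and the highest level per kb in each complex, for tissue isoform sets, and for up to 4 called genes of each other list. The values of 1 gene are not reported here, although it is counted in the totals. Genes printed for replicate 3 were chosen after their values were seen. Cox6a2, Cox7a1, Cox8b, Cox8c and Ppargc1a were not analysed here. Other steps used Python 3.11.15 with NumPy 2.4.6, pandas 2.3.3, SciPy 1.17.1 and Matplotlib 3.10.9.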

Additional observations from a re-analysis of the deposited data

How the results depend on the processing

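The count of respiratory chain genes called between genotypes at both thresholds was 0 under the settings that follow. They were a pseudocount of 0.1 or 1, no filter on low values, a filter at a mean of 2 CPM and median-ratio rescaling. They also included chromosome medians removed, no intensity trend, the replicate block and each library left out. In the fit with the replicate block, leaving out pair 1 called Cox6b2, at -0.574. With the adjusted p alone the count was 0 in the fit without the block under each of those settings, and 7 with the replicate block. Those 7 fell to 0 with chromosome medians removed and to 2 with no intensity trend. Over all tested genes 3385 fell to 2641 and 2466. Without pairs 1, 2 and 3 the 7 became 6, 0 and 4, against 3654, 1259 and 1641 of all tested genes. The 29 genes that differed by replicate number fell to 5 with no intensity trend and to 19 with GC bin medians removed. Over all tested genes 4554 fell to 2190 and 3151. With pairs 1, 2 and 3 left out the 29 became 27, 19 and 0, against 5466, 1411 and 670 of all tested genes. Of the other pathway genes, 1 was called, against 0 with chromosome medians removed, 3 with the replicate block and 0 to 1 with a library left out. Over all genes the calls between genotypes were 330 without and 1768 with the block. The median log2 fold change of the 76 genes was between -0.053 and 0.103 with a library left out, within the spread of the replicates. GC bins, the settings of the blocked fit and the leaving out of pairs were chosen after seeing the data. The cause of these changes was not tested. At the depth of these libraries the lowest of the 76 genes, Cox6b2 and Atp5s, had levels far above the worth of 3 reads.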
